A study of Mus musculus with 98 samples.

Results

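The 9 mouse genes described here are Cdkn1a, Mdm2, Ccng1, Phlda3, Gdf15, Trp53inp1, Eda2r, Bax and Nqo1, a set of p53 target and stress genes. They were found by symbol among the 19689 mouse rows of the liver count table, and all 9 were present and passed the filter on low counts. The livers came from 10-week-old male FRGN mice, an immunodeficient strain without functional Fah, Rag2 and Il2rg on a non-obese diabetic background. Hepatocytes injected into the spleen had repopulated these livers, human ones in the Hu arm (15 livers, "liver humanized") and murine ones in the control Mu arm (12 livers, "control liver muranized"). Mice of both arms were cycled on and off nitisinone (NTBC), which spares hepatocytes that lack Fah, and received SMX/TMP antibiotics and dextrose in the drinking water. Livers and skeletal muscles were taken at zeitgeber times (ZT, counted in h from lights on) 2, 6, 10, 14, 18 and 22, with 2 or 3 libraries per arm, tissue and time. The title of the series gives the question as whether the clocks of hepatocytes take part in setting the daily phase of behaviour and physiology. The labels do not say whether the libraries of a group come from separate mice, so p-values measure the spread between these libraries, which may in part be technical.

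The transcription factor p53 is held at a low level by the ubiquitin ligase Mdm2 and accumulates when DNA damage or other stress interrupts that control. It then raises genes that stop the cell cycle, restrain growth signals or start apoptosis, and Mdm2 itself, which closes a negative feedback loop. In liver, the pathway is known for its part in the response to toxic injury. Nqo1 belongs mainly to a separate pathway, the response to oxidants and electrophiles driven by Nfe2l2 (NRF2), which Keap1 restrains.

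The mouse rows of a Hu liver hold the RNA of host cells, among them any remaining host hepatocytes and the vessel, stellate, bile duct and immune cells. The mouse rows of a Mu liver also hold the grafted murine hepatocytes, so the arms differ in which mouse cells are counted. Fah, the enzyme of tyrosine breakdown that the strain lacks, was measured first as a check of the labels. It ranged from 3.45 to 34.2 CPM (median 16.6) in Hu livers and from 568 to 941 CPM (median 678) in Mu livers, and every Hu liver lay below every Mu liver. CPM here are mouse counts per 1e+06 mouse counts of the library, after scaling with edgeR's TMM factors, the scale of the tests. Rag2 and Il2rg had counts in both arms, with medians of 1.19 and 1.94 CPM in Hu livers and of 0.30 and 2.31 CPM in Mu livers. Mouse counts per liver library ranged from 7.70 to 87.9 M in Hu and from 97.1 to 118 M in Mu.

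The share of counts in human rows ranged from 15.9 to 93.1% (median 58.7%) in Hu livers and from 0.00592 to 0.0204% in Mu livers. The labels state that mice above 70% repopulation were used. In 4 of 15 Hu livers the human share of counts was above 70%, but this is a share of RNA counts, not of cells. A library of the Hu arm, ZT18 replicate 3, stood apart, with the highest human share and the fewest mouse counts. Its 9 measured hepatocyte markers summed to 9087 CPM, against 45265 to 100482 CPM in the other 14 Hu livers and 112790 to 150986 CPM in Mu livers. Its 8 stellate and fibroblast markers summed to 5279 CPM, against 626 to 3450 CPM in the other Hu livers. Where leaving it out changed a member's call or the sign of its value, the value without it is given. In bulk tissue, fewer cells of a type and less RNA per cell cannot be told apart.

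Promoter sequences of members with a match to the p53 consensus decamer are shown because these genes share p53 as a textbook regulator. RefSeq promoter windows of build GRCm38.p6 were found for 8 of the 9 members, and the 250 bases before each start were searched on both strands. The decamer matched in 4 of the 10 member windows, of Cdkn1a, Mdm2, Ccng1 and Bax, and in 7.13% of all 32851 windows of the same length. Each sequence below runs 5′ to 3′ along the gene's own strand and ends at the base before the start, and capitals mark the decamer.
Cdkn1a, chr17:29090729-29090978, plus strand: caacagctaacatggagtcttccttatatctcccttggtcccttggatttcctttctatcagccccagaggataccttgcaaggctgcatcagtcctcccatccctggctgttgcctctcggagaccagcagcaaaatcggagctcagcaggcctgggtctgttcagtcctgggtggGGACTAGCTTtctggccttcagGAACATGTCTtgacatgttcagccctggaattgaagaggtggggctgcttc
Mdm2, chr10:117710759-117711008, minus strand: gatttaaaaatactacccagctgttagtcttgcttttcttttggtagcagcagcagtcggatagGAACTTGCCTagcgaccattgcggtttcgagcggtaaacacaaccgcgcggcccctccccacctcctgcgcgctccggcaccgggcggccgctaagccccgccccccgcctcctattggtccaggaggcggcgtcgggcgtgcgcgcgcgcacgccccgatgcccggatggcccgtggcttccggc
Ccng1, chr11:40755287-40755536, minus strand: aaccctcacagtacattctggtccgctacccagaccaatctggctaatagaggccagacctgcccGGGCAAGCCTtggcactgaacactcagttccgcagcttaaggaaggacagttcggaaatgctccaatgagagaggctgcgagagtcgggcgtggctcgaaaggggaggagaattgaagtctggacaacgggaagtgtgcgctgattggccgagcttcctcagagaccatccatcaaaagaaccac
Bax, chr7:45466899-45467148, minus strand: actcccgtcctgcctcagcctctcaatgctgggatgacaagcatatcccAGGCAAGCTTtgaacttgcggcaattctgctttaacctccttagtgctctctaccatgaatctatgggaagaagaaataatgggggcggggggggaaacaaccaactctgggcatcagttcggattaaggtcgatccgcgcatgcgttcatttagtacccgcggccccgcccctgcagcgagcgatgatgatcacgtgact
The Cdkn1a window shown held 2 matches, which began 73 and 51 bases before the start. The matches of Mdm2, Ccng1 and Bax began 186, 185 and 201 bases before it. Another window of Cdkn1a held no match. The core of the antioxidant response element, TGACNNNGC, matched in the window of Eda2r and in 10.2% of all windows, and not in that of Nqo1. A match is a run of letters, not a measured binding site, and Trp53inp1 had no window.

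Of the 9 members, 8 were higher in Hu than in Mu livers and 1, Gdf15, did not pass the test, in the comparison of time-averaged levels (edgeR quasi-likelihood test, Benjamini-Hochberg adjusted p under 0.05 over 14977 genes). The arms differed over most of the transcriptome, since 79.5% of all genes tested were called, 42.5% higher and 37.0% lower in Hu livers. The median fitted log2 difference was 1.84 over the members and 0.07 over all genes. The members were chosen with earlier results of these data known, so this contrast is not an independent test. Nqo1, Eda2r and Phlda3 had the largest differences, and Mdm2 and Bax the smallest among those called.

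**Figure D1:**
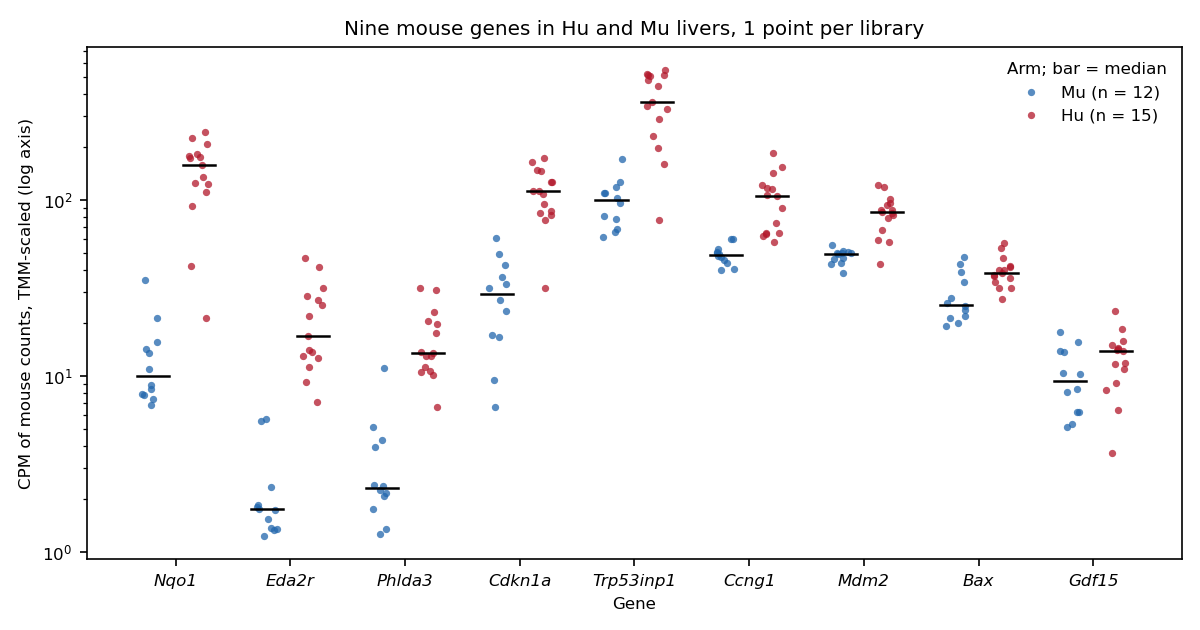
Level of each member in every liver library, in TMM-scaled CPM of mouse counts on a log axis, for 15 Hu and 12 Mu livers, with black bars at the medians. The medians are higher in Hu livers for all 9 genes, the arms do not overlap for Eda2r, and they overlap over most of their range for Gdf15.

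The cell cycle arrest gene of the set is Cdkn1a (ENSMUSG00000023067, chromosome 17, 29090976 to 29100727, GRCm38), which encodes the cyclin-dependent kinase inhibitor p21. Its level ranged from 31.4 to 174 CPM (median 112) in Hu livers and from 6.68 to 60.6 CPM (median 29.3) in Mu livers. It exceeded the whole Mu range in 14 of 15 Hu livers, the exception being ZT18 replicate 3. The fitted difference was 1.93 ± 0.26 on the log2 scale (SE; edgeR adjusted p = 4.75e-07), a 3.81-fold higher level. A gene annotated on the opposite strand, AC167363.2, overlaps Cdkn1a, and whether the counting used strand is not given in the sources used here.

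The feedback regulators of p53 moved less. Mdm2 (ENSMUSG00000020184, chromosome 10, 117688875 to 117710758), whose product marks p53 for degradation, ranged from 43.1 to 122 CPM (median 85.8) in Hu and from 38.4 to 55.5 CPM (median 49.5) in Mu livers. All Hu livers but ZT18 replicate 3 exceeded the Mu range, and the Mu livers differed among themselves by only 1.45-fold. The difference was 0.78 ± 0.10 (log2, SE; edgeR adjusted p = 2.11e-07). Ccng1 (ENSMUSG00000020326, chromosome 11, 40748552 to 40755311) encodes cyclin G1, which brings a phosphatase to Mdm2. It ranged from 57.8 to 185 CPM (median 105) in Hu and from 40.1 to 60.1 CPM (median 48.6) in Mu livers. The arms overlapped through 1 Hu liver, ZT18 replicate 1. Its difference was 1.003 ± 0.15 (log2, SE; edgeR adjusted p = 1.50e-06).

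Among genes that act on growth and survival signals, Phlda3 and Eda2r were scarce in Mu livers. Phlda3 (ENSMUSG00000041801, chromosome 1, 135766119 to 135769136) encodes a protein that keeps the kinase Akt from the membrane. It ranged from 6.68 to 31.6 CPM (median 13.5) in Hu and from 1.26 to 11.04 CPM (median 2.31) in Mu livers. The arms overlapped because 4 Hu livers fell below the highest Mu liver, ZT10 replicate 1. The difference was 2.33 ± 0.24 (log2, SE; edgeR adjusted p = 9.18e-09), a 5.04-fold higher level. Eda2r (ENSMUSG00000034457, chromosome X, 97333840 to 97377216) encodes the receptor of ectodysplasin A2, a member of the tumour necrosis factor receptor family. It ranged from 7.11 to 46.5 CPM (median 16.8) in Hu and from 1.23 to 5.67 CPM (median 1.74) in Mu livers. No Hu liver overlapped the Mu range while the other 8 members overlapped, and all Hu livers were above all Mu livers for 7.52% of all genes tested. This count depended on the scale: 0 members were apart with all rows (Eda2r in 12 of 15 Hu livers above every Mu liver), 5 with the mouse total alone and 6 on hepatocyte markers. The share over all genes was taken on the TMM scale alone. On the other scales the median difference of all genes moved to -0.68, 0.74 and 1.37 in this order, so these counts are no result about the members. The difference of Eda2r was 3.14 ± 0.29 (log2, SE; edgeR adjusted p = 1.19e-09), an 8.83-fold higher level.

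Trp53inp1 (ENSMUSG00000028211, chromosome 4, 11156431 to 11174379), which encodes a p53-induced protein active in cell death and autophagy, ranged from 77.0 to 547 CPM (median 359) in Hu livers. It ranged from 61.9 to 170 CPM (median 99.95) in Mu livers, and 13 of 15 Hu livers exceeded the whole Mu range. The 2 Hu livers within the Mu range were ZT18 replicate 3 and ZT10 replicate 2, the livers with the highest human shares. Its difference was 1.84 ± 0.23 (log2, SE; edgeR adjusted p = 1.14e-07). Bax (ENSMUSG00000003873, chromosome 7, 45461697 to 45466898), which opens the mitochondrial outer membrane in apoptosis, ranged from 27.3 to 57.4 CPM (median 38.3) in Hu and from 19.3 to 47.4 CPM (median 25.4) in Mu livers. Only 2 Hu livers, ZT6 replicates 2 and 3, exceeded every Mu liver, and all 15 exceeded the Mu median. The difference was 0.46 ± 0.10 (log2, SE; edgeR adjusted p = 1.57e-04). The annotation places another gene, Gm45808, on the same strand over Bax, so part of its counts could be shared.

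Nqo1 (ENSMUSG00000003849, chromosome 8, 107388225 to 107403206) encodes a quinone reductase and is a classic NRF2 target. It ranged from 21.3 to 245 CPM (median 159) in Hu and from 6.79 to 35.2 CPM (median 9.92) in Mu livers. It exceeded the whole Mu range in 14 of 15 Hu livers, and ZT18 replicate 3, at 21.3 CPM, lay below ZT2 replicate 2 and ZT10 replicate 1 of the Mu arm. The difference was 3.47 ± 0.33 (log2, SE; edgeR adjusted p = 2.16e-09), an 11.1-fold higher level and the largest of the 9. Gdf15 (ENSMUSG00000038508, chromosome 8, 70629393 to 70632456), a secreted stress hormone of the TGF-beta superfamily that acts on the hindbrain, ranged from 3.67 to 23.4 CPM (median 13.9) in Hu and from 5.09 to 17.7 CPM (median 9.33) in Mu livers. The arms overlapped widely, with 2 Hu livers above and 1 below every Mu liver. Its difference was 0.30 ± 0.20 (log2, SE; edgeR adjusted p = 0.174), and 0.44 (edgeR adjusted p = 0.0451) without the 3 Hu livers with the fewest mouse counts.

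In each of 27 fits that left out a liver, ZT18 replicate 3 included, 8 members were called higher and Gdf15 was not. The size of each difference depended on how counts were scaled between arms. Scaled to the total of mouse and human counts, the median of all genes moved to -0.68, and 5 members were still called higher (Cdkn1a, Phlda3, Trp53inp1, Eda2r and Nqo1), beside 17.5% of all genes called higher and 60.0% lower. On that scale Mdm2 stood at 0.05, Ccng1 at 0.20, Bax at -0.30 and Gdf15 at -0.38, and none of these passed the test. Scaled to the mouse total with no further factor, the median of all genes moved to 0.74, and all 9 members were called higher, beside 72.6% of all genes. Scaled to the hepatocyte markers, the median of all genes was 1.37, and all 9 were called higher, beside 80.5% of all genes called higher and 5.63% lower. The difference of Nqo1, Eda2r, Phlda3, Cdkn1a and Trp53inp1 was above that of the median gene by over 1 log2 unit on each of these 4 scales. A change of scale shifts members and median gene nearly together, so the 4 scales are not separate checks of this.

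**Figure D2:**
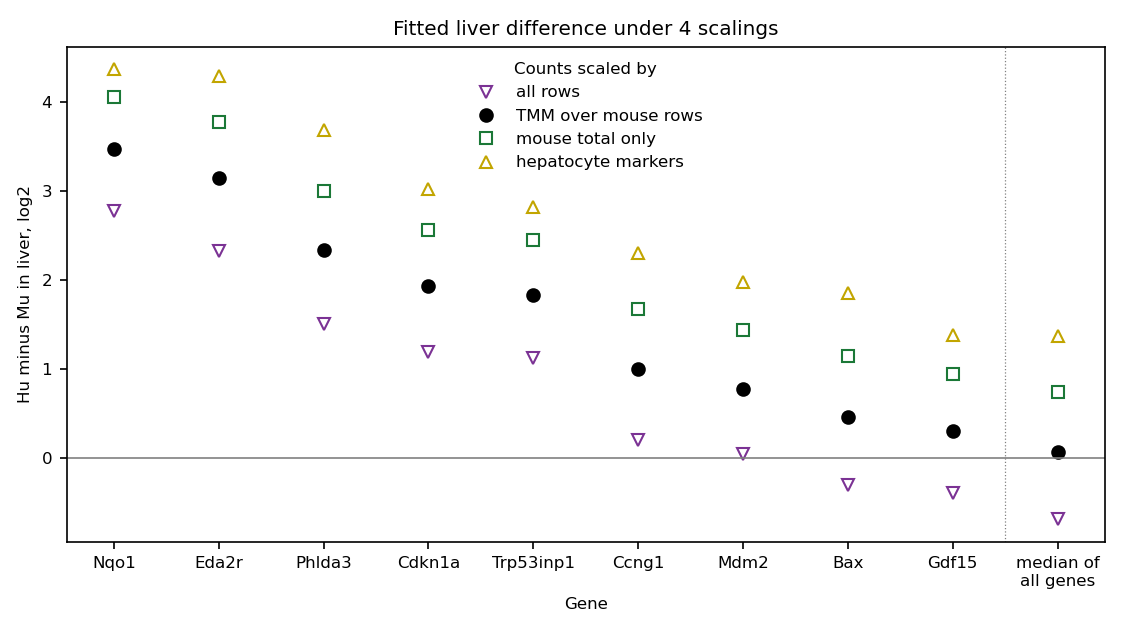
Fitted Hu minus Mu difference in liver on the log2 scale for each member and for the median of all genes tested, under 4 ways of scaling the counts. The 9 genes keep nearly the same order, while the whole set shifts with the median gene, from -0.68 with all rows to 1.37 with hepatocyte markers.

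Markers of other cell types moved with the arm as well, beside 42.5% of all genes called higher and 37.0% lower on the TMM scale. In TMM-scaled CPM the hepatocyte markers, of which 9 of 10 were measured, were lower in Hu livers for 8 of 9 and summed to a median of 67937 CPM in Hu and 133024 CPM in Mu livers. Stellate and fibroblast markers were called higher for 8 of 8 (summed 626 to 5279 CPM in Hu, 494 to 769 CPM in Mu), and sinusoidal endothelium markers for 6 of 6 (301 to 1723 CPM in Hu, 305 to 391 CPM in Mu). Bile duct markers were higher for 5 of 5 (236 to 867 CPM in Hu, 73.4 to 162 CPM in Mu), cell division genes for 5 of 5 (21.98 to 116 CPM in Hu, 9.07 to 40.9 CPM in Mu), and Kupffer and macrophage markers for 4 of 6 (550 to 2355 CPM in Hu, 541 to 1055 CPM in Mu). Both measured lymphocyte and neutrophil markers that passed the filter were higher (6 markers summed to 2.39 to 31.3 CPM in Hu and 1.30 to 18.6 CPM in Mu). With all rows as library size, 17.5% of all genes were higher and 60.0% lower. On that scale Kupffer and macrophage markers were higher for 0 and lower for 3 of 6, and sinusoidal endothelium markers higher for 1 and lower for 1 of 6. Stellate and fibroblast markers were higher for 5 of 8, bile duct markers for 5 of 5, cell division genes for 3 of 5, and lymphocyte and neutrophil markers for 0 of 2. Without ZT18 replicate 3, Kupffer and macrophage markers were higher for 3 of 6, and the other counts on the TMM scale did not change. No marker was at 0 in all livers, and the 4 skeletal muscle markers summed to at most 0.501 CPM. The part of these cell types in the members' differences was not tested.

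Per kb of exon, the order of the levels differed between arms. In Hu livers the highest was Nqo1 at 94.4 ± 40.5 CPM per kb (SD, n = 15), followed by Trp53inp1 at 56.8 ± 23.4, Cdkn1a at 31.4 ± 10.6, Ccng1 at 29.0 ± 11.01 and Bax at 25.2 ± 5.12 CPM per kb. Mdm2 at 16.6 ± 4.25, Phlda3 at 10.5 ± 4.79, Gdf15 at 6.88 ± 2.62 and Eda2r at 3.62 ± 2.02 CPM per kb (SD, n = 15) followed. Among neighbours in this order, Nqo1 and Trp53inp1, Cdkn1a and Ccng1, Ccng1 and Bax, and Phlda3 and Gdf15 differed by less than the larger of their SDs. In Mu livers Bax was highest at 18.4 ± 6.09 CPM per kb (SD, n = 12), and Nqo1 came after Trp53inp1, Ccng1 and Mdm2, at 8.49 ± 5.26 CPM per kb. Eda2r was the lowest member in both arms, at 0.39 ± 0.27 CPM per kb in Mu livers (SD, n = 12).

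Several Hu livers lay on one side of the Hu median for 9 of 9 members. The share of all genes on that side in the same livers was not taken. ZT6 replicates 2 and 3 and ZT2 replicate 3 were above the Hu median for 9 of 9 members, and the 2 ZT6 livers held the highest value of 7 members between them. ZT18 replicates 1 and 3 and ZT14 replicate 2 were below the median for 9 of 9, and ZT18 replicate 3 held the lowest value of 6 members. In the Mu arm, ZT10 replicate 1 and ZT2 replicate 2 were above the median for 9 of 9 members, and ZT10 replicate 1 held the highest value of 5. These same 2 Mu livers had the highest sums of cell division genes, 40.9 and 27.1 CPM, and the part of this in the members' levels was not tested. Over the 15 Hu livers, the genes whose log2 CPM was most like that of Cdkn1a were Abhd5 (Pearson r 0.98, Spearman rho 0.95), Cand1 (r 0.95) and Ces2e (r 0.95). Those most like Gdf15 were 2010003K11Rik (r 0.95), Cidec (r 0.93) and Wsb2 (r 0.93). Without ZT18 replicate 3, r was 0.95 for Abhd5, 0.88 for Cand1 and 0.86 for Ces2e, and 0.92, 0.86 and 0.91 for 2010003K11Rik, Cidec and Wsb2. All were taken as the highest r among 14976 genes over 15 livers, and the points share the libraries and their cell makeup.

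Time of day was examined with a cosine of a 24 h period in each arm. In Mu livers, Bax and Phlda3 passed the test for a rhythm, 2 of 9 members beside 17.3% of all genes. Bax stood at 27.9 and 47.4 CPM at ZT2, 26.0 and 43.2 at ZT6, 34.1 and 39.1 at ZT10, 19.3 and 21.8 at ZT14, 20.0 and 21.3 at ZT18, and 23.7 and 24.9 CPM at ZT22. All 6 values from ZT2 to ZT10 lay above all 6 from ZT14 to ZT22. The fitted Bax rhythm had an amplitude of 0.50 log2 units and a peak at ZT 5.42 h (edgeR adjusted p = 0.00566).

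Phlda3 stood at 4.33 and 5.10 CPM at ZT2, 2.06 and 3.94 at ZT6, 2.16 and 11.04 at ZT10, 2.25 and 2.40 at ZT14, 1.26 and 1.35 at ZT18, and 1.75 and 2.37 CPM at ZT22 in Mu livers. The lowest pair was at ZT18, and the pair at ZT10 differed more than that of any other time. Its fitted amplitude was 0.96 log2 units with a peak at ZT 6.82 h (edgeR adjusted p = 0.0346). This call was lost without any one of ZT2 replicate 1, ZT10 replicate 1, either replicate of ZT14 or ZT18, or ZT22 replicate 1, where the adjusted p ranged from 0.0507 to 0.118. Without ZT10 replicate 1 Cdkn1a passed the test (edgeR adjusted p = 0.0239), which with all Mu livers had an amplitude of 0.55 and did not pass (edgeR adjusted p = 0.261).

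In Hu livers, 0 of 9 members passed the edgeR test for a rhythm, beside 0.167% of all genes, and 0 of 9 passed with DESeq2, which called 516 genes. The share of all genes at an unadjusted p under 0.05 was not taken, so counts of members at that threshold are no result about them. At that threshold there were 5 with edgeR (Bax, Ccng1, Eda2r, Mdm2 and Phlda3) and 6 with DESeq2. Their fitted amplitudes ran from 0.27 (Bax) to 0.71 log2 units (Eda2r), and their fitted peaks from ZT 3.69 to ZT 5.50 h. No member passed the edgeR test for a different rhythm between arms, beside 1.28% of all genes, nor that of DESeq2. In simulated counts with the same spread for all genes, this edgeR test depended on amplitude. It recovered 8.0% of genes with an amplitude of 0.5 in Mu alone and 1.5% in Hu alone. With an amplitude of 1 it recovered 90.5% in Mu alone and 93.0% in Hu alone. Mdm2, with an unadjusted p of 0.0179 and an adjusted p of 0.162 (edgeR), was the 1 member under 0.05 before adjustment with either tool. Mdm2 had an amplitude of 0.33 in Hu and 0.10 in Mu livers, and the Mu values kept within 38.4 to 55.5 CPM over the day. Human shares also differed by time of day, from 15.9 to 73.9% at ZT2 and from 66.3 to 81.3% at ZT10. Scaled to all rows, where the mouse total follows the human share, 8 members were called rhythmic in Hu and 0 in Mu livers. Of all 14977 genes, 8627 were called rhythmic in Hu and 85 in Mu livers on that scale.

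**Figure D3:**
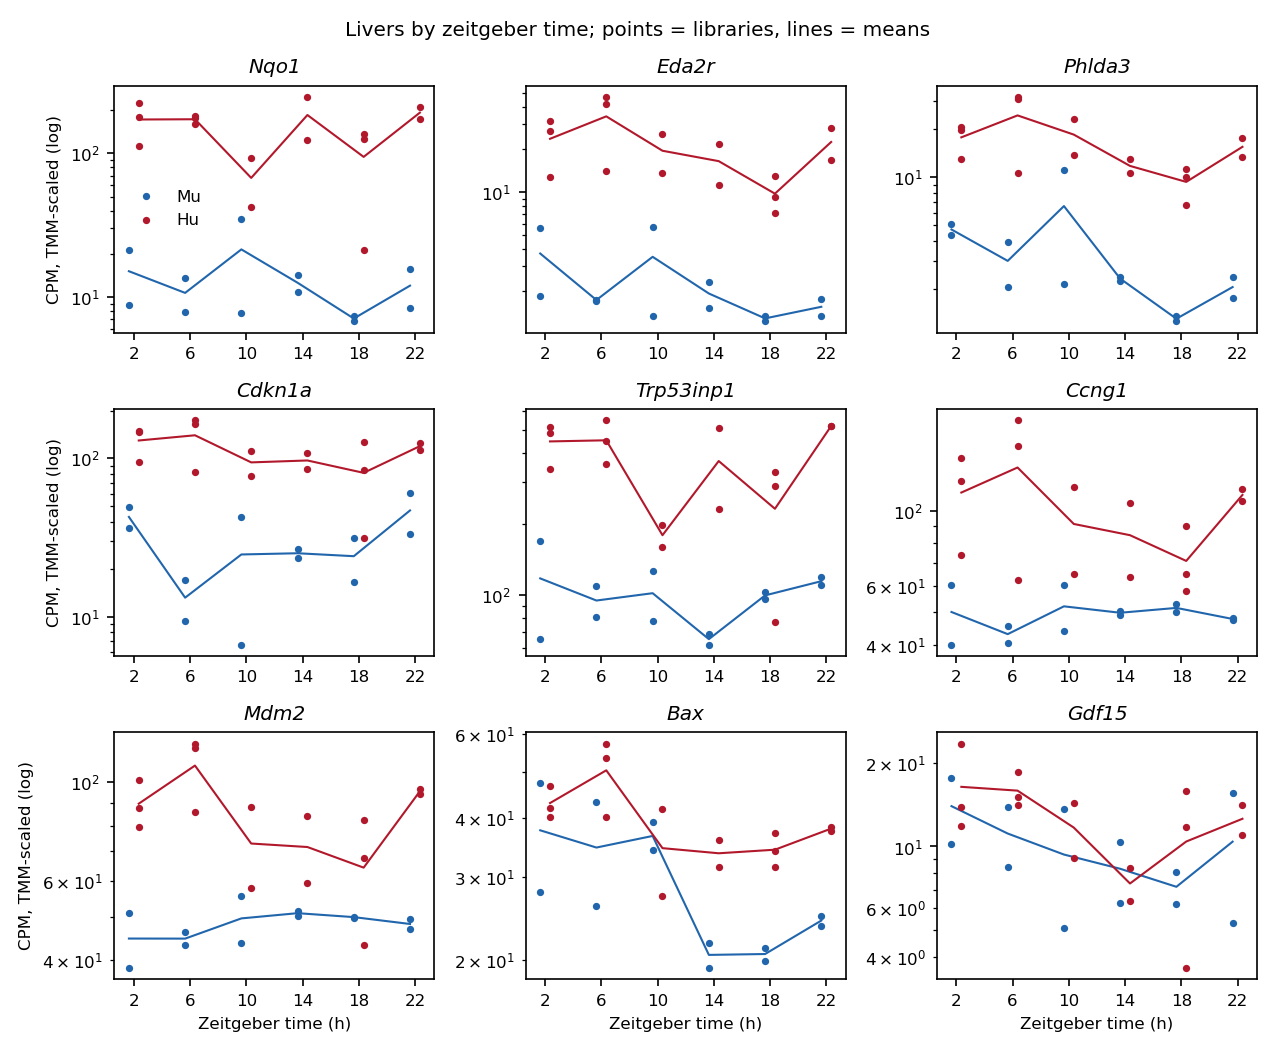
Level of each member by zeitgeber time in Hu and Mu livers, in TMM-scaled CPM on log axes that differ between panels, with points for libraries and lines through the means of each time. Bax in Mu livers falls from ZT10 to ZT14, and in Hu livers 6 of the 9 genes have their highest mean at ZT6.

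Across Hu livers, the slope on the human share was fitted with the time terms. Of the 9 members, 1 (Phlda3) was called, with a rise of 0.17 ± 0.06 log2 units per 10 percentage points (SE; edgeR adjusted p = 0.0471), beside 41.7% of all genes, 22.9% higher and 18.8% lower with the share. This call was lost in 11 of the 15 fits that left out a liver (range of adjusted p over the 15 fits 0.0231 to 0.211), without time terms (slope 0.05; adjusted p = 0.634), and scaled to all rows, where the slope was -0.14. It was also lost with a replicate block (slope 0.08; edgeR adjusted p = 0.496). Nqo1 had a slope of -0.24 ± 0.13 (SE; edgeR adjusted p = 0.141), which was -0.11 without ZT18 replicate 3. Without that liver Ccng1 passed the test, with a slope of 0.22 (edgeR adjusted p = 0.0379) against 0.15 ± 0.07 with all livers (edgeR adjusted p = 0.115). The slope of Cdkn1a was 0.01 ± 0.09 with all livers and 0.13 (edgeR adjusted p = 0.096) without that liver, and that of Mdm2 was -0.02 ± 0.05 and 0.04 (edgeR adjusted p = 0.548). Eda2r moved from 0.14 ± 0.11 to 0.25 (edgeR adjusted p = 0.0737) and Trp53inp1 from -0.09 ± 0.11 to 0.03 (edgeR adjusted p = 0.83). Without it 2 members, Phlda3 and Ccng1, were called, beside 13.8% of all genes higher and 10.3% lower.

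The Hu liver with the lowest human share, 15.9%, had Nqo1 at 224 CPM, Cdkn1a at 95.1 CPM and Eda2r at 12.7 CPM, each above every Mu liver. The liver with the highest share, 93.1%, had Nqo1 at 21.3 CPM, Cdkn1a at 31.4 CPM and Eda2r at 7.11 CPM. The highest values of Eda2r, Phlda3 and Ccng1 were in a liver of 65.3%. All 8 stellate and fibroblast markers rose with the human share, as did 5 of 6 sinusoidal endothelium and 4 of 5 bile duct markers, beside 22.9% of all genes. Without ZT18 replicate 3 these counts were 7 of 8, 5 of 6 and 0 of 5, beside 13.8% of all genes. The part of these markers in the members' slopes was not tested.

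**Figure D4:**
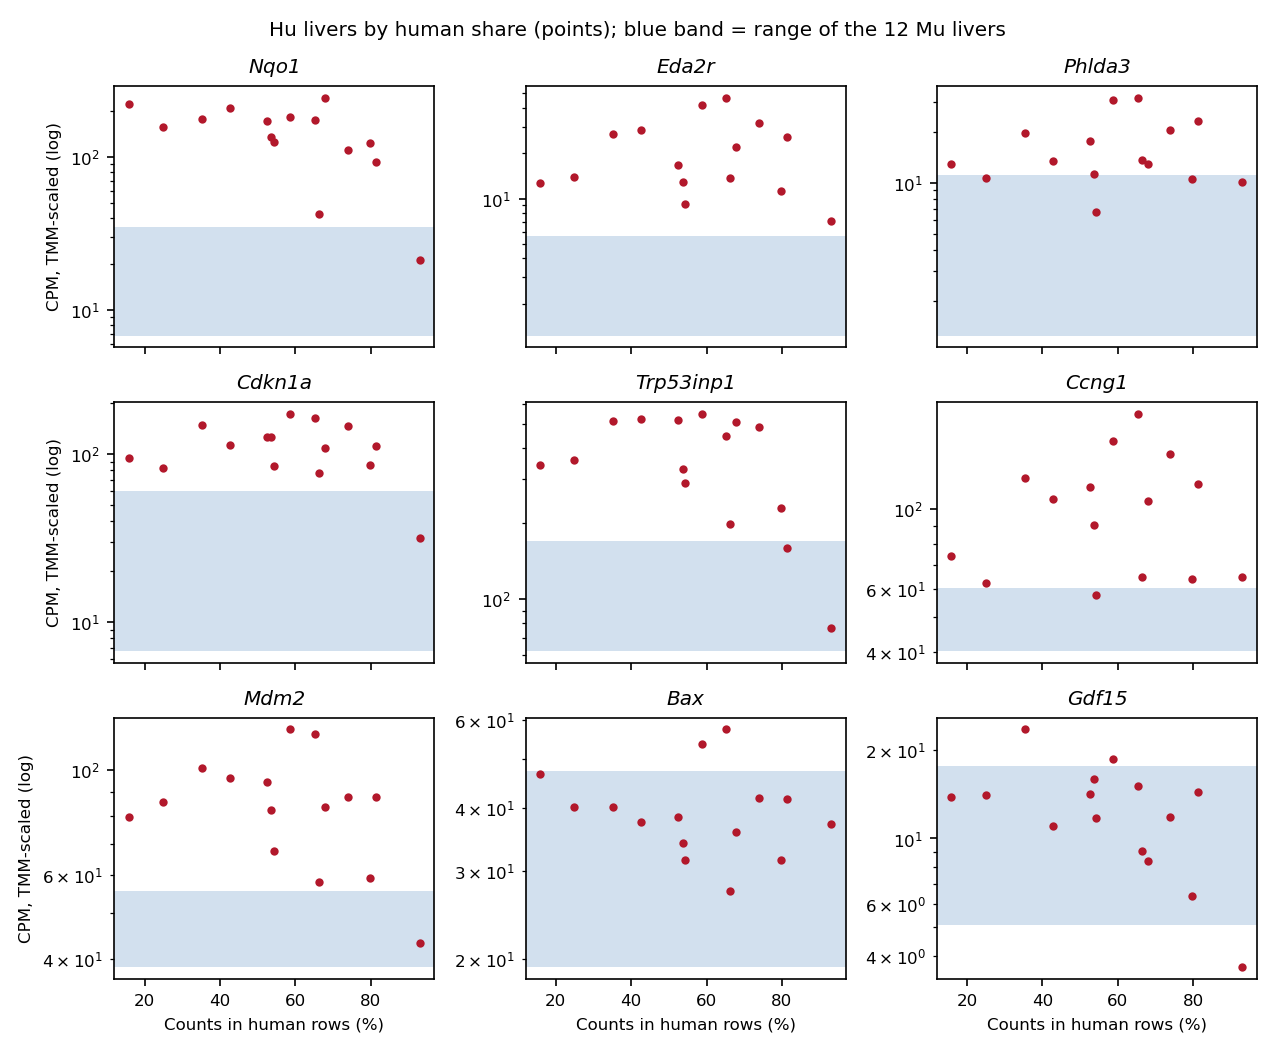
Level of each member in the 15 Hu livers against the percentage of counts in human rows, in TMM-scaled CPM on log axes, with a blue band for the range of the 12 Mu livers. The liver at 93.1% lies at or near the bottom for Nqo1, Trp53inp1, Cdkn1a, Mdm2, Eda2r and Gdf15, and the highest values of Eda2r and Phlda3 lie near 65%.

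Skeletal muscle of both arms holds host cells and was used as the comparison tissue. There, 3 members were higher in Hu (beside 13.5% of all genes) and 1 was lower (beside 13.3%). All 4 Kupffer and macrophage markers tested in muscle were also higher in Hu (6 markers summed to a median of 43.3 CPM in Hu and 22.4 CPM in Mu), and their part in the members' differences was not tested. Cdkn1a ranged from 14.1 to 361 CPM (median 34.5) in 15 Hu and from 12.3 to 45.2 CPM (median 22.1) in 12 Mu muscles. The 361 CPM came from ZT14 replicate 2 of the Hu arm, and the next highest was 122 CPM. That library also had the lowest sum of the 4 skeletal muscle markers, 70904 CPM against a Hu median of 112897 CPM, and the part of this in the result was not tested. The difference was 1.197 ± 0.30 (log2, SE; edgeR adjusted p = 0.00545), and 0.70 without that library (adjusted p = 0.00197).

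Trp53inp1 ranged from 13.8 to 39.6 CPM (median 19.05) in Hu and from 8.95 to 18.3 CPM (median 14.03) in Mu muscles, with 9 of 15 Hu above every Mu muscle. Its difference was 0.57 ± 0.11 (log2, SE; edgeR adjusted p = 0.00111). Eda2r ranged from 16.1 to 103 CPM (median 25.2) in Hu and from 11.3 to 26.9 CPM (median 21.5) in Mu muscles. Its difference was 0.66 ± 0.22 (edgeR adjusted p = 0.0273), and 0.40 (adjusted p = 0.0499) without ZT14 replicate 2, which held the 103 CPM. With time as a factor instead of a cosine, the calls of Cdkn1a (0.86, adjusted p = 0.119) and Eda2r (0.50, adjusted p = 0.126) were lost.

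Phlda3 was lower in Hu muscles, ranging from 29.6 to 121 CPM (median 74.4) against 51.3 to 141 CPM (median 109) in Mu muscles. Its difference was -0.53 ± 0.17 (log2, SE; edgeR adjusted p = 0.0221), opposite in sign to its difference in liver. Nqo1, at 0.33 ± 0.12 (log2, SE; edgeR adjusted p = 0.0505), did not pass, but it did with DESeq2 (adjusted p = 0.0322), which called 5 members. It also passed in edgeR with RLE size factors (adjusted p = 0.0489), with no scaling factor (adjusted p = 0.0398) and in 7 of 27 fits that left out a muscle (range over the 27 of 0.0265 to 0.0949). Neither did Gdf15 at 0.74 ± 0.40, Mdm2 at -0.07 ± 0.06, Ccng1 at 0.01 ± 0.11 and Bax at 0.02 ± 0.06 (log2, SE). The arms overlapped in muscle for all 9 members, and they were apart for 0.0563% of all genes with Hu higher and 0.0493% with Hu lower. Gdf15 rested on 2 to 73 counts per muscle library. Ccng1 was far more abundant in muscle, with a median of 1016 CPM in Hu and 930 CPM in Mu muscles. Of rhythms in muscle, 1 member was called, Cdkn1a in Hu muscles (amplitude 1.29 log2 units, peak at ZT 16.6 h; edgeR adjusted p = 0.0129), beside 7.78% of all genes. In Mu muscles 0 of 9 passed with edgeR (5.31% of all genes; 1 member, Bax, at an unadjusted p under 0.05), where Cdkn1a had an amplitude of 0.81 and a peak at ZT 0.99 h (adjusted p = 0.224). No member passed the edgeR test for a different rhythm between arms in muscle, beside 0.0704% of all genes. At an unadjusted p under 0.05 there were 2 (Cdkn1a and Eda2r). For the unadjusted counts in muscle no share of all genes was taken. In simulated counts with the same spread for all genes, the test for a different rhythm in muscle depended on amplitude. It recovered 2.51% of genes with an amplitude of 0.5 in Mu alone and 0% in Hu alone. With an amplitude of 1 it recovered 95.5% in Mu alone and 90.0% in Hu alone. For Cdkn1a that test gave an edgeR adjusted p of 0.126 with all libraries and 0.0427 without ZT14 replicate 2, and without it the Mu rhythm also passed (adjusted p = 0.00736).

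The difference between the tissues was tested as an interaction over both tables. The Hu minus Mu difference was larger in liver than in muscle for 7 of 9 members, beside 32.8% of all genes, and smaller for 0 members with edgeR, beside 32.2%. Without Hu liver ZT18 replicate 3 it was again larger for 7 members. This test was not run with all rows as library size. On that scale the liver differences of Mdm2, Ccng1 and Bax were 0.05, 0.20 and -0.30, and none of these passed. The excess in liver was 3.14 ± 0.34 for Nqo1, 2.86 ± 0.30 for Phlda3, 2.48 ± 0.35 for Eda2r and 1.26 ± 0.25 for Trp53inp1 (log2, SE). It was 0.99 ± 0.19 for Ccng1, 0.84 ± 0.12 for Mdm2 and 0.44 ± 0.12 for Bax, and the adjusted p of these 7 lay between 3.62e-11 and 0.0011 (edgeR). For Cdkn1a it was 0.73 ± 0.39 (edgeR adjusted p = 0.101), and 1.23 (edgeR adjusted p = 4.78e-04) without Hu muscle ZT14 replicate 2. For Gdf15 it was -0.44 ± 0.43 (edgeR adjusted p = 0.378). Liver and muscle libraries were taken as independent, although some may come from the same mouse.

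**Figure D5:**
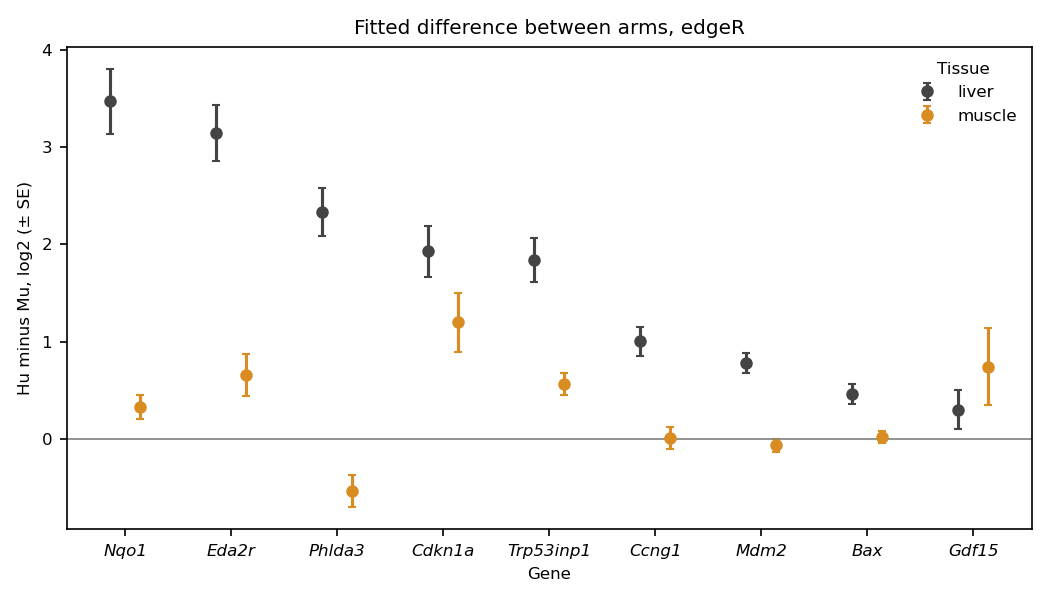
Fitted Hu minus Mu difference of each member in liver and in skeletal muscle, on the log2 scale with bars of 1 SE, from 15 Hu and 12 Mu libraries per tissue. The liver difference lies above that of muscle for all genes but Gdf15, and Phlda3 has opposite signs.

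Other genes of the pathways moved in both directions. Of 30 further p53 targets, 15 were higher and 7 lower in Hu livers and 8 did not pass the test, beside 42.5% of all genes higher and 37.0% lower, with a median difference of 0.33 (log2) against 0.07 over all genes. The direction of this list depended on the scaling, since with all rows 9 were higher and 15 lower (17.5% and 60.0% of all genes), and on hepatocyte markers 26 were higher and 1 was lower (80.5% and 5.63% of all genes). Tnfrsf10b, a death receptor, had medians of 10.9 CPM in Hu and 1.30 CPM in Mu livers, a difference of 2.72 ± 0.24 (log2, SE; edgeR adjusted p = 4.48e-10). Ddit4l, an inhibitor of mTOR signalling, was higher by 2.41 ± 0.23, with medians of 21.01 CPM in Hu and 3.76 CPM in Mu livers. The zinc finger gene Zfp365 was higher by 2.31 ± 0.34, at medians of only 0.57 and 0.14 CPM. Dcxr, a xylulose reductase, was lower at -2.02 ± 0.20, with medians of 26.97 CPM in Hu and 105 CPM in Mu livers. Perp, at -0.99 ± 0.16, and Ei24, at -0.94 ± 0.13, were also lower. When scaled to hepatocyte markers Perp stood at -0.0136 (edgeR adjusted p = 0.934) and Ei24 at 0.18, and neither passed. In muscle, 6 of these 30 were higher and 3 lower, beside 13.5% and 13.3% of all genes.

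Of 12 regulators of p53, 8 were higher and 1 was lower (42.5% and 37.0% of all genes), with a median of 0.69 (log2). With all rows 1 was higher and 4 were lower (17.5% and 60.0% of all genes). Trp53 itself had medians of 45.6 CPM in Hu and 30.4 CPM in Mu livers, a difference of 0.57 ± 0.06 (edgeR adjusted p = 1.44e-08), and stood at -0.20 with all rows. Mdm4, the partner of Mdm2, did not pass at -0.08 ± 0.07 (edgeR adjusted p = 0.299). Cdkn2a, whose locus encodes the Mdm2 inhibitor p19Arf and the kinase inhibitor p16, was higher by 1.91 ± 0.24, with medians of 1.40 CPM in Hu and 0.29 CPM in Mu livers. The checkpoint kinase gene Chek1 was higher by 1.32 ± 0.26 and the kinase gene Hipk2 by 0.97 ± 0.23. The acetyltransferase gene Kat5 was lower at -0.31 ± 0.06, and this turned to 0.38 with the mouse total alone.

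Of 20 genes of the NRF2 pathway, 16 were higher and 3 lower (42.5% and 37.0% of all genes), with a median of 1.56 (log2). With all rows 12 were higher and 4 lower (17.5% and 60.0% of all genes). Slc7a11, the cystine transporter, had medians of 910 CPM in Hu and 31.8 CPM in Mu livers, a difference of 3.98 ± 0.44 (edgeR adjusted p = 1.83e-08). The carbonyl reductase gene Cbr3 was higher by 3.14 ± 0.35, and the glutathione transferase gene Gsta1 by 3.06 ± 0.43, whose reads may be shared with near-identical copies. Nfe2l2 itself did not pass at -0.12 ± 0.08 (edgeR adjusted p = 0.149). Its inhibitor Keap1 was lower at -0.57 ± 0.06, but stood at 0.10 with the mouse total alone. Me1, at -1.22 ± 0.21, and Gsta3, at -1.10 ± 0.22, stood below 0 on all 4 scales but did not pass the test when scaled to hepatocyte markers.

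Of 16 genes of the integrated stress response (Slc7a11, given above, among them), 12 were higher and 2 lower (42.5% and 37.0% of all genes), with a median of 1.47 (log2). With all rows 8 were higher and 2 lower (17.5% and 60.0% of all genes). The serine synthesis gene Psat1 was higher by 3.997 ± 0.36 (medians 21.01 and 1.23 CPM; edgeR adjusted p = 7.84e-10) and the asparagine synthetase gene Asns by 3.65 ± 0.47 (medians 13.2 and 0.68 CPM; edgeR adjusted p = 2.29e-07). The transcripts of the transcription factors Atf5, at -1.07 ± 0.24, and Atf4, at -0.69 ± 0.15, were lower. When scaled to hepatocyte markers Atf5 stood at -0.12 (edgeR adjusted p = 0.537) and Atf4 at 0.50, and neither was lower, with 14 genes of the list higher and 0 lower. Ddit3 was higher by 0.27 ± 0.12 (edgeR adjusted p = 0.0395) and stood at -0.42 with all rows. In this list 7 genes fell and 0 rose with the human share in Hu livers, beside 18.8% and 22.9% of all genes, and the counts were again 7 and 0 without ZT18 replicate 3.

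Of 14 genes of the BCL2 family other than Bax, 9 were higher and 3 lower (42.5% and 37.0% of all genes), with a median of 0.36 (log2). With all rows 4 were higher and 7 lower (17.5% and 60.0% of all genes). The anti-apoptotic Bcl2 was higher by 1.94 ± 0.19, and the pro-apoptotic BH3-only genes Hrk and Bcl2l11 by 1.89 ± 0.45 and 1.69 ± 0.15. Bbc3, which encodes the p53 target PUMA, was lower at -0.71 ± 0.14, and Bad at -0.50 ± 0.10 and Bcl2l2 at -0.19 ± 0.07. All 3 stood above 0 when scaled to hepatocyte markers. Of 6 CDK inhibitors other than Cdkn1a, 3 were higher and 0 lower with edgeR (42.5% and 37.0% of all genes). These were Cdkn2b by 3.00 ± 0.21, Cdkn1c by 1.91 ± 0.14 and Cdkn2a. With all rows 3 CDK inhibitors were higher and 3 lower (17.5% and 60.0% of all genes).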

How the data were processed

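RNA was isolated with the RNeasy kit and libraries were made with a directional NEBNext Ultra II kit, per the labels' protocols. The authors deposited raw read counts per gene for each library, and the submitters' processing notes name STAR and the builds GRCm38 (mm10), GRCh38 (hg38) and hg19. The counting tool, and whether it used strand, are not given in the sources used here. The liver table holds 19689 mouse and 17729 human rows, of which 19615 mouse rows were matched to a symbol. Human rows served only for the human share. Every per-sample column of the liver and muscle tables was mapped to a sample through its name.

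Library size was the sum of mouse rows. Genes were filtered with filterByExpr by arm and scaled by TMM, and arm and 24 h cosine and sine terms per arm were fitted with edgeR 4.0.16 (quasi-likelihood test, R 4.3.3), with Benjamini-Hochberg adjustment over all genes and a threshold of 0.05. The share slope was fitted in Hu livers with time terms, and the difference between tissues in 1 model of liver and muscle. DESeq2 1.42.0, other scalings, no filter, time as a factor, a replicate block and leaving out each library were alternatives, and the joint model was also run without Hu muscle ZT14 replicate 2 or Hu liver ZT18 replicate 3, chosen after seeing the data. The fits were tested on simulated counts.

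The members and lists were chosen with earlier results of these data known. Genes named are the members, the strain genes, Trp53, Mdm4, Nfe2l2, Keap1, Atf4 and Ddit3, the 3 called genes with the largest difference per direction of each list, and the 3 genes most like Cdkn1a and Gdf15. Gene positions are those of GRCm38 in the GENCODE annotation. Intervals between libraries rest on 7.70 to 87.9 M mouse counts in Hu and 97.1 to 118 M in Mu livers.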

Additional observations from a re-analysis of the deposited data

Results flagged for a closer look

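For 7 members the Hu minus Mu difference was unequal in liver and muscle by the interaction test of edgeR, with Benjamini-Hochberg adjustment over 15774 genes. Nqo1 was higher in Hu by 3.47 in liver and by 0.33 in muscle (log2), and the fitted difference between these was 3.14. For Phlda3 the values were 2.33 in liver and -0.53 in muscle, with a fitted difference of 2.86. Eda2r stood at 3.14 in liver and 0.66 in muscle, with a fitted difference of 2.48, and Trp53inp1 at 1.84 and 0.57, with 1.26. Ccng1 stood at 1.003 in liver and 0.01 in muscle, with a fitted difference of 0.986. Mdm2 stood at 0.78 and -0.07, with 0.843, and Bax at 0.46 and 0.02, with 0.439. The liver values rest on TMM scaling, and with all rows Mdm2 stood at 0.05, Ccng1 at 0.20 and Bax at -0.30 in liver. The mouse cells counted in liver differ between arms by design, so tissue and cell makeup cannot be told apart in these differences.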

How the results depend on the processing

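With all rows as library size, 5 members were called higher in Hu livers, and Gdf15 stood at -0.38, Bax at -0.30, Il2rg at -0.67, Trp53 at -0.20 and Ddit3 at -0.42. With no scaling factor, Kat5 stood at 0.38, Keap1 at 0.10, Bad at 0.19, Bcl2l2 at 0.51, Mdm4 at 0.62 and Nfe2l2 at 0.56. Scaled to hepatocyte markers, Ei24 stood at 0.18, Kat5 at 1.07, Keap1 at 0.69, Atf4 at 0.50 and Bbc3 at 0.49. On that scale Bad stood at 0.90, Bcl2l2 at 1.25, Mdm4 at 1.35 and Nfe2l2 at 1.21. In the difference from muscle, with the liver so scaled, Gdf15 stood at 0.64 and did not pass (edgeR adjusted p = 0.196). There the median of all genes was 1.32. With all rows, 85 genes and 0 members were rhythmic in Mu livers, 8627 genes and 8 members in Hu livers, and 11 genes differed in rhythm. DESeq2 called 516 genes rhythmic in Hu livers and 1152 different in rhythm. In muscle with time as a factor, 1 member was higher and Ccng1 stood at -0.0025.

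For the share slope without time terms, 0 members were called higher and 1, Gdf15, was called lower. Its slope was -0.16 (edgeR adjusted p = 0.0476), against -0.12 (edgeR adjusted p = 0.265) with time terms. Cdkn1a, at -0.0523, and Bax, at -0.0249, turned below 0 and did not pass. With all rows, 11182 genes were called, and the median slope of all genes was -0.31. On that scale 0 members were called higher and 5 lower (Bax, Gdf15, Mdm2, Nqo1 and Trp53inp1). Cdkn1a (-0.27), Ccng1 (-0.15), Phlda3 (-0.14), Eda2r (-0.16) and Bax (-0.27) turned below 0, and of these only Bax passed. Scaled to hepatocyte markers, 11252 genes were called, and the median slope of all genes was 0.36. The 7 members called higher were Bax, Ccng1, Cdkn1a, Eda2r, Mdm2, Phlda3 and Trp53inp1. Mdm2 (0.34), Gdf15 (0.22), Trp53inp1 (0.21) and Nqo1 (0.0539) turned above 0, and of these Gdf15 and Nqo1 did not pass. The share of all genes by direction was not taken on these scales. The median gene moved with the scale, so these counts are no result about the members.

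Whether replicate numbers pair the libraries was not settled. Of same-numbered pairs, 7 of 12 in liver (correlation of deviations 0.0129 to 0.312) and 2 of 12 in muscle (-0.145 to 0.462) were above 0.1. At ZT10, ZT14 and ZT22, with 2 replicates per arm, both pairs hold the same value, so the pairs are not independent. With the replicate block, 8 members stayed higher in liver, Nqo1 passed in muscle (0.38; adjusted p = 0.0427), and the share slope called 1490 genes and 0 members higher, since the call of Phlda3 was lost (0.0812; adjusted p = 0.496), with Cdkn1a at -0.0828 and Bax at -0.00254.

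Leaving out each library in turn gave 1460 to 3559 genes and 1 to 2 members rhythmic in Mu livers, 8 to 827 genes in Hu livers, and 38 to 1009 genes different in rhythm. In muscle it gave 388 to 1110 genes and 0 to 1 members rhythmic in Mu, 602 to 1138 genes in Hu, and 0 to 19 genes and 0 to 1 members different. The share slope gave 3365 to 6227 genes, the fewest without Hu liver ZT18 replicate 3, and 0 to 2 members higher, with Cdkn1a from -0.0731 to 0.132, Mdm2 from -0.0576 to 0.0431 and Trp53inp1 from -0.179 to 0.0295. Muscle Ccng1 ranged from -0.0623 to 0.0799 and Bax from -0.0245 to 0.0426. The cause of these changes was not tested. Counts of Gdf15 in muscle, 2 to 73 per library, limit its precision.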

Other observations

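The Hu muscle of ZT6 replicate 1 stood apart in genes that are no members. Its lymphocyte and neutrophil markers summed to 725 CPM and its cell division genes to 491 CPM, against Hu medians of 1.45 and 2.79 CPM. It held the highest Bax of the Hu muscles, at 15.2 CPM, with the next at 11.8 CPM.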
